A study of Mus musculus with 8 samples.

Results

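The CatSper genes encode the sperm calcium channel, and 8 of them were described across 4 arrays of Kdm2b knockdown and 4 arrays of control mouse embryonic stem cells (ESCs). They were Catsper1, Catsper2, Catsper3, Catsper4, Catsperb, Catsperd, Catsperg1 and Catsperz, and each was read only from probe sets that carry the name of that gene alone. By this rule 7 of the 8 genes had a probe set of their own, 1 probe set each, among the 19938 genes of the array that did. Catsperg1 had none, because its probe set also carries the name of Catsperg2. The family was chosen by the same contrast that is described here, with the difference of its members between knockdown and control already known, and the values of the members are therefore given as a description with no test.

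CatSper is a calcium channel of the sperm tail that opens when the inside of the sperm cell becomes alkaline, and the calcium it lets in drives the vigorous beating that a sperm needs to reach and penetrate the egg. CATSPER1, CATSPER2, CATSPER3 and CATSPER4 line the pore, CATSPERB, CATSPERG, CATSPERD and CATSPERE form a canopy over it on the outside, and CATSPERZ and EFCAB9 lie under it inside the cell. The genes are known for expression in the testis during sperm formation, and ESCs are not a tissue in which the channel is known to work. KDM2B is a histone demethylase whose zinc finger binds unmethylated CpG dinucleotides and which brings a form of polycomb repressive complex 1 (PRC1) to CpG islands.

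The study asked what happens to transcription in ESCs when KDM2B is depleted. All samples were E14 cells, a mouse ESC line, grown with the cytokine LIF, in which stable lines had been made by lentiviral delivery of an shRNA and puromycin selection, so that the controls also carried a vector. The knockdown samples carried 1 shRNA against Kdm2b (shKdm2b) and were of passages 27 to 30, and the controls carried 1 scrambled shRNA (shScrambled) and were of passages 28 to 31. The labels call the samples biologically independent and do not say whether they came from separate infections, so that the errors below measure the spread between these samples of 2 lines and not between lines. The shRNAs are shown because the contrast rests on them.
shKdm2b: cgctgtggaaatatctgtcat
shScrambled: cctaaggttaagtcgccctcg

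Total RNA of each sample was hybridised to 1 Affymetrix Mouse Gene ST array, and levels are log2 signals after robust multi-array averaging (RMA). The median log2 signal of an array lay between 8.47 and 8.53. As in the methods of the study, a gene counts as called, higher or lower, when the majority of its own probe sets have an adjusted p under 0.05 and the most significant of them differs at least 1.5-fold, which is 0.58 on the log2 scale. The knockdown was visible in Kdm2b itself, whose log2 signal was between 8.68 and 9.45 in the knockdown arrays and between 10.74 and 11.34 in the controls, a fall of 75.9%. The 15 ESC markers had a mean log2 signal of 12.85 to 12.88 in the knockdown and of 12.73 to 12.85 in the control arrays, so that both lines carried the markers of their labelled cell type. Their median log2 difference was 0.18 (all genes 0.05), with Pou5f1 at 0.03, Sox2 at 0.18, Nanog at 0.26 and Klf4 at 0.43, all pluripotency factors that were not called. Lin28a at -0.40, Utf1 at -0.09 and Sall4 at -0.06 went the other way and were not called either. Before adjustment, 7 of the 15 had a limma p under 0.05 in the higher and 2 in the lower direction (all genes 16.8% and 13.6%). By the gene rule, 1 of the 15 was called (all genes 1.42% higher and 1.43% lower). It was Dppa4, a pluripotency-associated chromatin protein, which fell (log2 difference -0.96, standard error 0.10, adjusted p = 0.00168 from limma), but which was not called over passages 28 to 30, present in both groups (-0.97).

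Catsperz was the member that stood apart. It lies on chromosome 19, on the minus strand, and was read by probe set 10465494. In the knockdown arrays, replicates 1 to 4 in order here and below, it gave log2 signals of 10.00, 10.22, 10.47 and 10.46, and in the control arrays 8.30, 8.23, 8.17 and 8.34. Every knockdown array was above every control array, and the gap between the groups was far wider than the spread inside either of them. The means were 10.29 ± 0.22 and 8.26 ± 0.08 (SD, n = 4 each), a log2 difference of 2.03 (standard error 0.11, 95% confidence interval 1.78 to 2.27), or 4.07-fold. As bulk RNA was measured, more cells that express the gene and more RNA per cell cannot be told apart.

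None of the other 6 measured members moved in this way. By the gene rule, 1 of the 7 measured members was higher, 0 were lower and 6 were not called, where 1.42% of all genes were higher and 1.43% lower. The groups did not overlap in 1 of the 7 members, against 20.6% of all genes. Because the contrast chose the family, nothing is read from these shares.

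The pore subunits had levels within the spread of the replicates. Catsper1, which encodes the subunit whose histidine-rich tail is tied to pH sensing, had log2 signals of 7.90, 7.89, 7.69 and 7.78 in the knockdown and 7.64, 7.88, 7.77 and 7.75 in the control arrays. For Catsper2 the values were 7.08, 7.26, 7.28 and 7.05 against 7.33, 7.16, 7.11 and 7.14. In both genes the ranges of the groups overlapped, with log2 differences of 0.05 (standard error 0.07) and -0.02 (standard error 0.08). Catsper3 gave 6.27, 6.20, 6.10 and 6.15 in the knockdown and 6.09, 6.26, 6.11 and 6.05 in the control arrays, a log2 difference of 0.05 (standard error 0.07). The most tightly replicated of the pore genes was Catsper4, at 7.60, 7.65, 7.53 and 7.52 against 7.60, 7.68, 7.54 and 7.58, with a log2 difference of -0.02 (standard error 0.06). Knockdown and control arrays were interleaved in both.

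The canopy subunits with a probe set of their own did not separate the groups either. Catsperb was read at 5.50, 5.45, 5.18 and 5.48 in the knockdown and at 5.48, 5.43, 5.40 and 5.20 in the control arrays, each group having 1 array about as low as the lowest of the other group. Its log2 difference was 0.02 (standard error 0.09). Catsperd was read at 8.14, 7.92, 7.84 and 8.11 against 8.0, 7.92, 7.86 and 7.88, a log2 difference of 0.09 (standard error 0.08), and knockdown replicates 1 and 4 lay above all controls, replicate 2 lay among them and replicate 3 lay below them. Over these 6 genes the differences ran from -0.02 to 0.09 and the bounds of their 95% confidence intervals from -0.20 to 0.26. Because the contrast chose the family, these intervals describe the spread between the samples and are no test of whether a gene changed. RMA compresses differences of dim probe sets, and how much of these signals came from specific hybridisation was not tested.

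**Figure D1:**
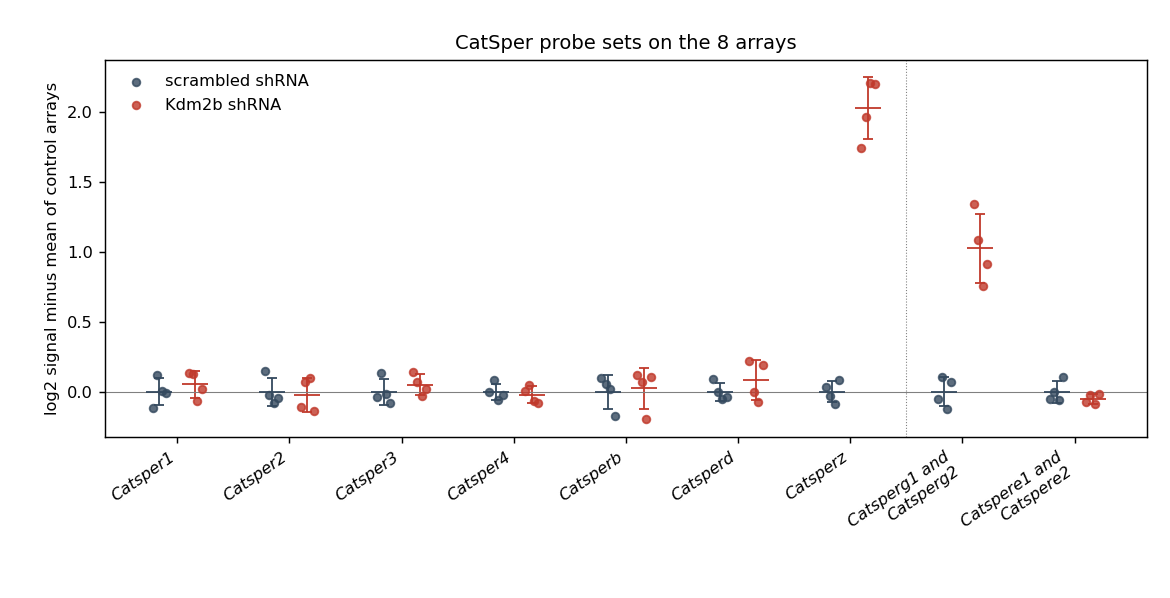
Log2 signal of each CatSper probe set minus the mean of its 4 control arrays, for control (blue) and knockdown (red) arrays, with means and SD (n = 4), and probe sets that carry a pair of gene names right of the dotted line. Catsperz lies 2.03 above its controls and the probe set of Catsperg1 and Catsperg2 lies 1.02 above, while the other genes overlap with their controls.

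One further CatSper probe set differed between the groups, but it cannot be given to 1 gene. It carries the names of Catsperg1 and Catsperg2, neighbouring copies of the gene for the gamma subunit of the canopy. It gave log2 signals of 9.68, 9.42, 9.10 and 9.26 with the Kdm2b shRNA and of 8.29, 8.44, 8.22 and 8.41 with the scrambled one. The groups did not overlap, and the means of 9.36 ± 0.25 and 8.34 ± 0.10 (SD, n = 4 each) differed by 1.02 (standard error 0.12, 95% confidence interval 0.75 to 1.30), or 2.03-fold. The probe set that carries the names of Catspere1 and Catspere2, for the epsilon subunit, had means of 5.85 ± 0.04 and 5.90 ± 0.08 (SD, n = 4 each), a log2 difference of -0.05 (standard error 0.06), and its groups overlapped.

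The replicate numbers allow the arrays to be set side by side. Over all probe sets, same-numbered arrays deviated together, but weakly (correlations of 0.118 to 0.355). In Catsperz itself, replicate 3 was the highest of the knockdown and the lowest of the control arrays. The log2 difference of Catsperz was 1.70, 1.99, 2.30 and 2.11 in replicates 1 to 4, and that of the probe set of Catsperg1 and Catsperg2 was 1.39, 0.98, 0.88 and 0.85. In Kdm2b it was -2.06, -1.98, -1.89 and -2.29. Both CatSper probe sets were higher in the knockdown in 4 of 4 replicates. Their order among the knockdown arrays was not the same, as replicate 1 had the lowest signal for Catsperz and the highest for the probe set of Catsperg1 and Catsperg2, and replicate 3 had the highest for Catsperz and the lowest for the other. Kdm2b was likewise lowest in knockdown replicate 1 and highest in replicate 3.

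**Figure D2:**
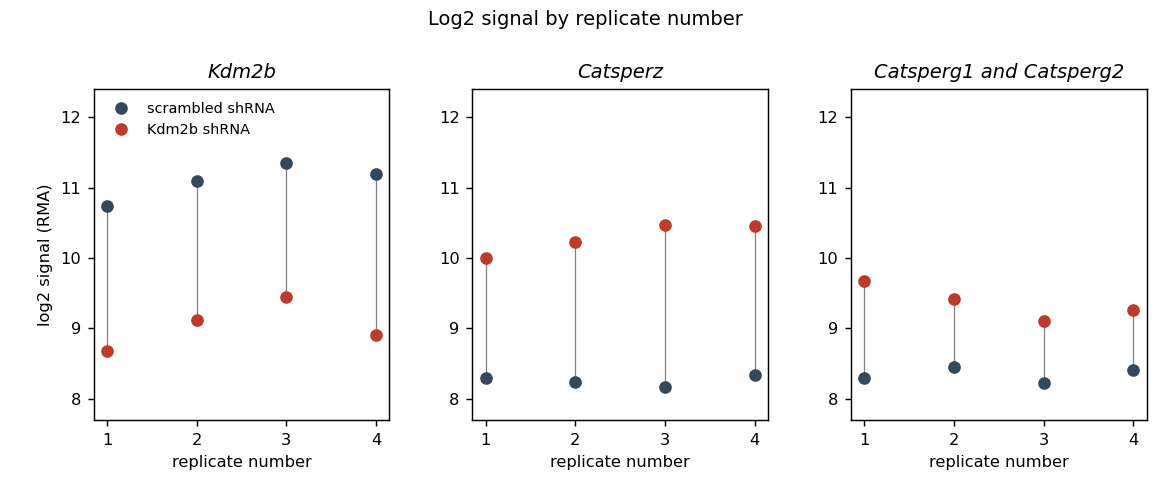
Log2 signal of Kdm2b, Catsperz and the probe set of Catsperg1 and Catsperg2 in control (blue) and knockdown (red) arrays by replicate number, with a line joining arrays of the same number. Kdm2b falls in each of the 4 replicates and both CatSper probe sets rise, Catsperz least in replicate 1 (1.70) and the other probe set most there (1.39).

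Promoter sequences are shown because KDM2B binds CpG dinucleotides. RefSeq windows on GRCm38.p6, from 250 bases before to 50 after the annotated start, were found for 7 of the 8 genes, Catsper1 being the exception. Shown are Catsperz (chr19:6925331-6925630, minus strand), the first of a pair of Catsperg1 windows (chr7:29213984-29214283, minus strand), and, of the genes not called, the richest in CpG, Catsper2 (chr2:121413743-121414042, minus strand), and a poor one, Catsper3 (chr13:55784329-55784628, plus strand). They run 5' to 3' on the strand of the gene, and capitals mark each CpG.
Catsperz: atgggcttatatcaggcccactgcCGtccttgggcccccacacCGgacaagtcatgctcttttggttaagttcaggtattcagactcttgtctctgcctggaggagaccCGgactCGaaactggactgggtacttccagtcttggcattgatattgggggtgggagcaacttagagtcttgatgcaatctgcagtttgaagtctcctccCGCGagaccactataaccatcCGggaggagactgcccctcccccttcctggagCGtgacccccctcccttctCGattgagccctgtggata
Catsperg1: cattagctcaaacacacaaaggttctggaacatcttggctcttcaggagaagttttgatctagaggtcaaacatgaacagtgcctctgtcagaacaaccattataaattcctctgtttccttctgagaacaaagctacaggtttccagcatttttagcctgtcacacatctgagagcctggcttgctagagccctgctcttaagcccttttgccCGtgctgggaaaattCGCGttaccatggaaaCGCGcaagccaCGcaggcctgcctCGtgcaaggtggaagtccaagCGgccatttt
Catsper2: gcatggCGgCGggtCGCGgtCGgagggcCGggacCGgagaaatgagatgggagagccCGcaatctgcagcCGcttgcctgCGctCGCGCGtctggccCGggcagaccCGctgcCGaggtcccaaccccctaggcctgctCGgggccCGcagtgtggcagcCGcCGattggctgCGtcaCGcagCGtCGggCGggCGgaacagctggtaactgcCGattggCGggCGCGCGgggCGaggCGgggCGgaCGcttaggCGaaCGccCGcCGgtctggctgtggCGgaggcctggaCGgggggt
Catsper3: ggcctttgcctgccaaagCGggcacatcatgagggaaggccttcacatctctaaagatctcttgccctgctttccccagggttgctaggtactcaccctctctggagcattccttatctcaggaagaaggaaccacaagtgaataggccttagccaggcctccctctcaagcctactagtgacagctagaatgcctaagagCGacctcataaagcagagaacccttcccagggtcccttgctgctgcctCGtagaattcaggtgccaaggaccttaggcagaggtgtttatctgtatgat

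The Catsperz window held 9 CpG dinucleotides in 300 bases, at a GC content of 55.3% and an observed over expected CpG ratio of 0.394. This lay at percentile 50.8 of all 32851 windows, whose medians were 7 CpG and a ratio of 0.384, and below the medians of 13 CpG and 0.567 of the windows of protein-coding genes. A window was called island-like at a GC content of at least 50% and a ratio of at least 0.6, which 33.5% of all windows and 45.2% of those of protein-coding genes met, and Catsperz did not. Of its family, Catsper2 with 41 CpG and a ratio of 1.007 and the first window of Catsperd (chr17:56626797-56627096, plus strand) with 29 CpG and a ratio of 0.899 were island-like, and neither gene was called.

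The remaining windows were poorer in CpG. The second window of Catsperd, at chr17:56627893-56628192, held 12 CpG at a ratio of 0.571. Those of Catsper3, Catsper4 (chr4:134227334-134227633, minus strand) and Catsperb (chr12:101404423-101404722, plus strand) held 3, 2 and 1. The windows of Catsperg1 held 8 and, at chr7:29210876-29211175, 9 CpG, at ratios of 0.460 and 0.373. The windows richest in CpG belonged to members with no call. Nothing is read from this, because the contrast chose the family. Of motifs searched on both strands and chosen after the letters had been read, TCCCGC, a core of E2F sites, was found in the Catsperz window alone of the family. It was found in 20.0% of all windows and 25.8% of those of protein-coding genes. The window of Esrra, a neighbour of Catsperz that was not called, held it as well. That Esrra window was island-like, with 25 CpG and a ratio of 0.781. CACGTG, the E-box, was found only in the first Catsperd window of the family, and in 7.2% of all windows and 7.8% of those of protein-coding genes. The promoters were matched by gene name, and whether KDM2B occupies them was not tested.

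**Figure D3:**
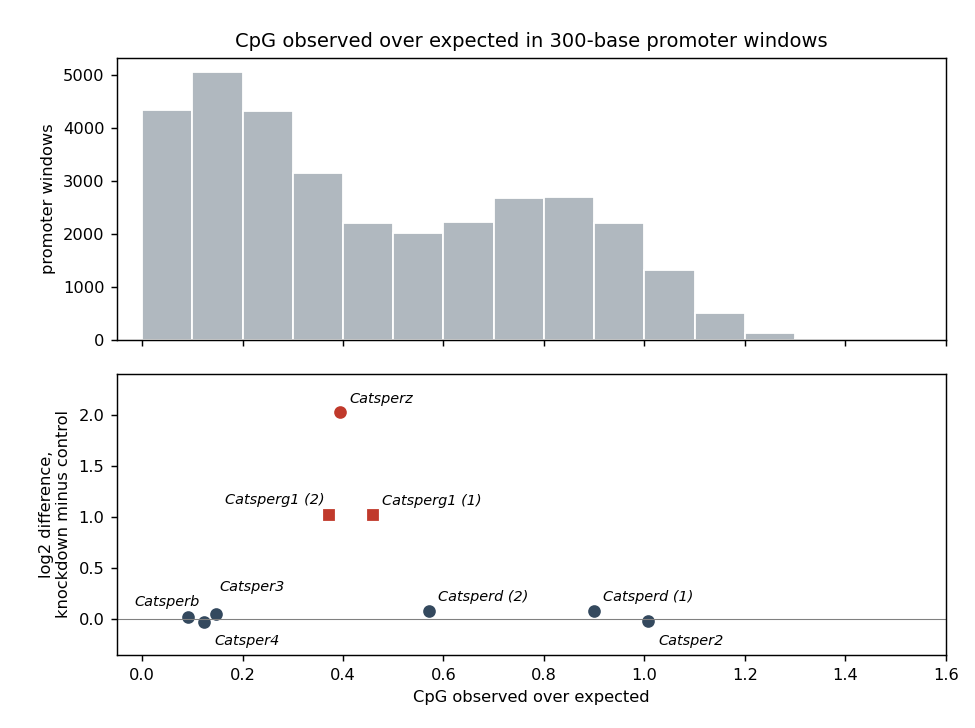
Observed over expected CpG ratio of all 32851 promoter windows of 300 bases (top), and the log2 difference of each CatSper gene against the ratio of its windows (bottom, red above 0.5 on the log2 scale). Squares place both Catsperg1 windows at the difference of the probe set shared with Catsperg2, and Catsperz lies at a ratio of 0.394 while the windows above 0.6 belong to Catsperd and Catsper2.

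The chromosomal neighbours of Catsperz did not share its difference. The 3 nearest protein-coding genes on each side with a probe set of their own were compared, and 0 of these 6 were called. On one side, Esrra, which encodes an orphan nuclear receptor, had a log2 difference of 0.19 (standard error 0.06, adjusted p = 0.0754 from limma). Next to it, Trmt112, a methyltransferase cofactor, had -0.30 (standard error 0.07, adjusted p = 0.0366 from limma), under 1.5-fold and with 1 of its 3 probe sets past the adjusted p. Ccdc88b, which encodes a coiled-coil protein, had 0.07 (adjusted p = 0.501).

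On the other side lies Kcnk4, a potassium channel gene that precedes Catsperz on the same strand and among whose former names RefSeq lists Catsperz. Its own probe set had a log2 difference of 0.17 (standard error 0.07, adjusted p = 0.144 from limma). Gpr137, an orphan receptor gene, had 0.13 (adjusted p = 0.413), and Bad, a promoter of apoptosis, 0.11 (adjusted p = 0.315). Around all 8 members there were 48 such neighbours with differences from -0.60 to 0.39 and a median of 0.05, and 0 were called by the gene rule. Before adjustment, 8 of them had a limma p under 0.05 in the higher and 9 in the lower direction, against 16.8% and 13.6% of all genes.

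**Figure D4:**
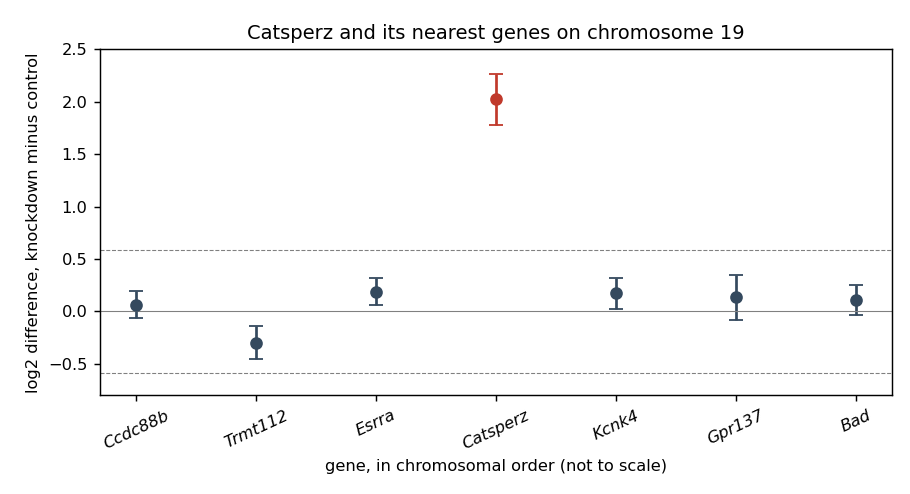
Log2 difference between knockdown and control with its 95% confidence interval for Catsperz (red) and the 3 nearest genes with their own probe set on each side (blue), with dashed lines at a 1.5-fold difference either way. Catsperz lies at 2.03 and its neighbours between -0.30 and 0.19.

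The other known subunits of the channel were not called. Of 9 listed, 6 had a probe set of their own, with log2 differences from 0.09 to 0.18 and a median of 0.12 (all genes 0.05). Before adjustment, 1 was higher and 0 lower at a limma p under 0.05 (all genes 16.8% and 13.6%). That gene was C2cd6, needed to carry the channel into the tail, with a log2 difference of 0.18 (standard error 0.06, adjusted p = 0.0818 from limma). Its signal was 5.27 to 5.32 in the knockdown and 5.02 to 5.19 in the control arrays, below the array medians. The groups did not overlap, as in 20.6% of all genes. Efcab9, which encodes the calcium-binding partner of CATSPERZ, had 0.14 (adjusted p = 0.363). Catspere2, a copy of the epsilon subunit gene, had 0.15 (adjusted p = 0.305), and Slco6c1, a transporter of the channel complex, 0.10 (adjusted p = 0.355). Trim69 had 0.11 (adjusted p = 0.295) and Tmem262 0.09 (adjusted p = 0.511).

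Among genes of sperm ion transport and signalling, 2 of 24 measured were higher and 0 lower, where the rule called 1.42% of all genes higher and 1.43% lower. Kcnu1 encodes the SLO3 potassium channel, which sets the membrane potential of sperm. Its log2 signal was 8.17, 8.06, 8.0 and 8.30 in the knockdown and 7.30, 7.31, 7.22 and 7.49 in the control arrays, and the difference was 0.80 (standard error 0.08, adjusted p = 0.00204 from limma). Ppp3cc, the catalytic subunit of the calcineurin of sperm, had 9.69, 9.55, 9.42 and 9.81 against 8.66, 8.47, 8.23 and 8.75, a log2 difference of 1.09 (standard error 0.13, adjusted p = 0.00336 from limma). Both groups were well apart in either gene, although Ppp3cc missed the threshold when only passages 28 to 30, present in both groups, were compared (log2 difference 1.14, adjusted p = 0.0598).

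Partners of these genes were looked up after the values had been seen and were not called. Lrrc52, the auxiliary subunit of SLO3, had a log2 difference of 0.15 (standard error 0.09, limma adjusted p = 0.342), and Ppp3r2, the regulatory subunit of sperm calcineurin, had 0.17 (standard error 0.09, adjusted p = 0.261). Hvcn1, a proton channel, had -0.11 (adjusted p = 0.341). Slc9c1, the sperm sodium and proton exchanger, had 0.05 (adjusted p = 0.712), and Adcy10, the soluble adenylyl cyclase, 0.10 (adjusted p = 0.317). Each of these differences was below 0.58.

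The sperm tail, in which the channel sits, gave no call among 38 measured flagellum genes by the gene rule. Before adjustment, 9 of them had a limma p under 0.05 in the higher and 1 in the lower direction (all genes 16.8% and 13.6%), and the median difference was 0.10 (all genes 0.05). Cabyr, a calcium-binding protein of the fibrous sheath, and Meig1, needed for sperm formation, differed by 0.23 (standard error 0.05, adjusted p = 0.0301, limma) and 0.49 (standard error 0.12, adjusted p = 0.0404, limma), both under 1.5-fold. Under the replicate block, Meig1 had an adjusted p of 0.069 (limma). Akap4, the main protein of the fibrous sheath, had -0.03. Of 36 genes of the acrosome and of gamete fusion, 1 was higher, Tex101, a sperm surface glycoprotein gene (log2 difference 0.69, standard error 0.08, adjusted p = 0.00295 from limma).

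Of 19 genes of spermatid chromatin, 1 was higher. This was H1f6, the testis linker histone, at 9.33, 9.25, 9.30 and 9.37 in the knockdown and 8.5, 8.56, 8.41 and 8.58 in the control arrays, a log2 difference of 0.80 (standard error 0.06, adjusted p = 0.000445 from limma). The defining genes of spermatids, in which CatSper is made, were not called. The protamine genes Prm1 and Prm2, which pack sperm DNA, had log2 differences of 0.08 (adjusted p = 0.568 from limma) and 0.01 (adjusted p = 0.915), and the transition protein genes Tnp1 and Tnp2 had 0.13 (adjusted p = 0.323) and 0.08 (adjusted p = 0.467). Over these 5 sperm lists, from the other subunits to spermatid chromatin, 4 of 123 genes (3.25%) were higher, 0 lower and 119 not called, with a median of 0.09, where 1.42% of all genes were higher and 1.43% lower with a median of 0.05. Before adjustment, 26 had a p under 0.05 in the higher and 2 in the lower direction (all genes 16.8% and 13.6%), and since the lists were chosen with results known, nothing is read from the share.

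Markers of other cells gave 1 call in each list, where the rule called 1.42% of all genes higher and 1.43% lower. Of 13 somatic cell markers of the testis, 1 was higher, Cyp11a1, the first enzyme of steroid synthesis (log2 difference 0.76, standard error 0.12, adjusted p = 0.0113 from limma, and 0.81 with adjusted p = 0.0641 over passages 28 to 30), and the mean log2 signal of the list was 7.71 to 7.80 in the knockdown and 7.64 to 7.75 in the control arrays. Of 10 fibroblast markers, 1 was higher, Thy1, a surface glycoprotein gene (log2 difference 0.72, standard error 0.05, adjusted p = 0.000475 from limma), while the list mean was 7.87 to 8.10 against 7.85 to 8.16. The ranges of the groups overlapped in both lists. The largest difference among the testis markers was a fall, in Wt1 (log2 difference -1.0034), which was not called. Before adjustment, 1 testis marker was higher and 1 lower at a limma p under 0.05. Of the fibroblast markers, 2 were higher and 1 lower by the same measure (all genes 16.8% and 13.6%).

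**Figure D5:**
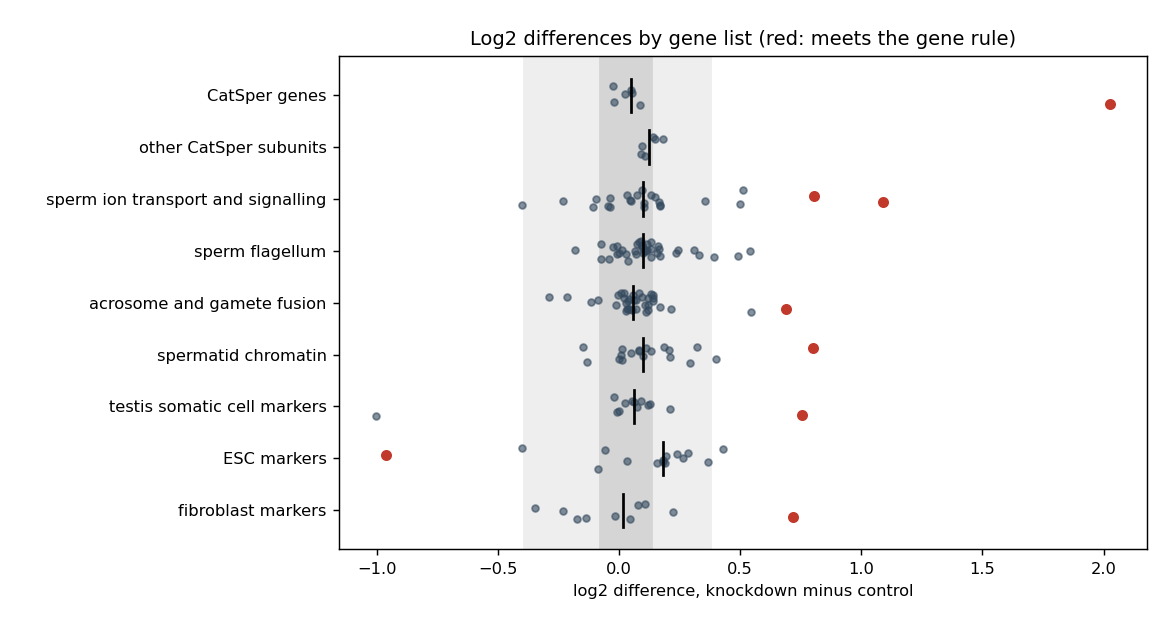
Log2 difference between knockdown and control of each measured gene, by list, with list medians as black bars, called genes in red and grey bands for the all genes, dark from the 25th to the 75th percentile (-0.08 to 0.14) and light from the 5th to the 95th (-0.39 to 0.38). Most genes of every list lie near its median, with Catsperz at 2.03 farthest out, and Wt1, the testis somatic marker at the far left, was not called.

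The genes whose signal followed that of Catsperz most closely were sought over all 8 arrays by Pearson correlation, as a description in which the group difference has the largest share. They were Gpd1l (r = 0.992), Nsdhl (0.991), Dock3 (0.989), Skida1 (0.989) and Sdr39u1 (0.988). Nsdhl encodes an enzyme of cholesterol synthesis and had a log2 difference of 0.62 (0.64 but not called over passages 28 to 30), and Dock3, a guanine nucleotide exchange factor, one of 1.15. For Skida1 and Sdr39u1 it was 0.89 and 0.83, whereas Gpd1l differed by only 0.22 and was not called. Within groups, the deviations of these genes from their group means correlated with those of Catsperz at 0.487 to 0.688, and 0 of the 5 were among the 5 closest by deviations alone. The other 6 CatSper genes correlated with Catsperz at -0.28 to 0.36 over all 8 arrays. Their deviations from the group means correlated with those of Catsperz at -0.70 to 0.27.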

How the data were processed

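Gene expression was measured in 4 shKdm2b and 4 shScrambled samples of E14 ESCs, grouped by their GEO labels. The authors deposited log2 values made from probe intensities with RMA in oligo 1.18.1, per the submitters' processing notes. Background correction, quantile normalization and probe summary are thus part of the values, and the number of arrays limits the precision. The array annotation behind the probe sets is not given in the sources used here.

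Of 35556 probe sets, 21789 name a single gene, 1621 several and 12146 none in GEO's annotation of the platform. Symbols were updated through gene identifiers in the RefSeq table of GRCm38.p6, which holds 19919 of the 19938 genes and also gave the order of neighbours. Knockdown and control were compared with limma 3.58.1 under R 4.3.3 (lmFit, eBayes with default prior) over every probe set, p-values were adjusted by Benjamini-Hochberg across the whole array, and 3015 had an adjusted p under 0.05. A gene with several probe sets is shown by its most significant one, except that overlap of groups was read from the probe set with the highest mean. Standard errors are moderated. Promoters were read with Python 3.11.15 and plotted with matplotlib 3.10.9. The pipeline was tested on simulated data.

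The CatSper genes and all lists were chosen with earlier results of these data known. Named were all members, the other subunits, Kdm2b, each list's called genes (up to 6, or 2 where none was called), the neighbours of Catsperz and the 5 genes most like it. Pou5f1, Sox2, Nanog, Klf4, Lin28a, Utf1, Sall4, Wt1, Akap4, the partners, protamines and transition proteins were added after their values were seen.

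Same-numbered arrays, which the labels describe as collected in parallel, had deviations from their group means that correlated at 0.118 to 0.355, and different numbers at -0.231 to 0.0747. All 4 pairs passed 0.1, so the numbers pair the arrays. The reported fit has no block, since the methods of the study state none, and the blocked fit is an alternative, given beside a result where it changes a call or its side of the threshold. Alternatives were the replicate block, trended and robust priors, array weights, median centring, a filter on dim probe sets, shared passages, 1 probe set per gene, shorter promoter windows and leaving out each array.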

Additional observations from a re-analysis of the deposited data

Results flagged for a closer look

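Among 72 groups of 4 arrays for the CatSper genes, the other subunits and the genes they are compared with, 5 held 1 array whose gap to the nearest other array as a share of the whole range was above Dixon's 95% critical value. Chance alone flags about 5% of such groups. Catsperb in knockdown replicate 3 was at 5.18 against 5.45 to 5.50 in the other knockdown arrays (gap over range 0.850). Trim69 in knockdown replicate 1 was at 7.72 against 7.54 to 7.56 (0.918), and in control replicate 1 at 7.55 against 7.46 to 7.47 (0.893). Slco6c1 in control replicate 2 was at 6.81 against 6.61 to 6.62 (0.939), and Ccdc88b in control replicate 2 at 8.44 against 8.29 to 8.31 (0.889). None of these genes was called, and the cause was not tested.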

How the results depend on the processing

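The count of called CatSper genes was 1 under the alternatives that kept all 7 measured genes in the fit, and the log2 difference of Catsperz was 1.97 to 2.12 when each array was left out and 2.15 over passages 28 to 30. For the probe set of Catsperg1 and Catsperg2 these differences were 0.92 to 1.11 and 0.94. With the replicate block, the counts were 1 for the CatSper genes, 4 for the other sperm lists and 0 for the neighbours, and no call by the gene rule changed, although Meig1, under 1.5-fold in either fit, went from an adjusted p of 0.0404 to 0.069 (limma). The count of called neighbours rose from 0 to 1 with array weights and over passages 28 to 30. In both cases this was Tc2n, a neighbour of Catsperb, with log2 differences of -0.84 (adjusted p = 0.00894 from limma) and -0.61 (adjusted p = 0.0485), and -0.60 in the fit reported. The cause was not tested.

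Other sperm lists gave 3 to 6 called genes. The genes added were Clgn with array weights and, without control replicate 1, Clgn and Prkar2a, and P2rx2 without knockdown replicate 3. Ppp3cc, Cyp11a1 and Dppa4, and Nsdhl among the genes most like Catsperz, were not called over passages 28 to 30, in a fit of fewer arrays in which their log2 differences were 1.14, 0.81, -0.97 and 0.64. The filter on dim probe sets kept Catsperz and left out the other 6 measured CatSper genes, and as the controls of Catsperz lie below the array medians, its place in that fit came from its knockdown arrays and the count there says nothing about the family.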
